A study of Lolium multiflorum with 4 samples.

Results

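Among the most abundant contigs of Lolium multiflorum (Italian ryegrass, a forage grass) seedlings, those that held 1 level across plant line and cadmium exposure were selected on their FPKM values. A contig is a transcript sequence assembled from the reads. Abundance was given as FPKM, a count of sequenced fragments corrected for the length of the contig and for how many fragments of the library were mapped. A contig was taken as abundant at a mean of 100 FPKM or more over the 4 libraries, and as stable when the highest of its 4 values was at most 1.5 times the lowest. Of 111761 contigs, 1044 were abundant and 86 of these were stable (8.24% of the abundant contigs). The contigs were chosen by these same 4 FPKM values, so their levels and their evenness are described and not tested.

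The 4 libraries came from material named LmHC (high cadmium) and LmLC (low cadmium), each sampled untreated (0 h) and again once it had spent 24 h in 300 µM CdCl2. LmHC and LmLC are called lines here, as the series text and growth protocol treat them, but the labels' treatment field holds the words high and low cadmium. Seedlings of both were raised on agar, moved to Hoagland solution at 7 days and treated at an age of 2 weeks; the tissue and the number of seedlings in a library are not given, and whether high and low refer to uptake or tolerance is not stated. Each group had 1 library, so there is no replicate spread and no p-value, and cadmium cannot be told apart from the passage of 24 h, because neither line has an untreated library at 24 h among those analysed here. In whole tissue, fewer cells of a type and less RNA per cell cannot be told apart.

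Cadmium is a toxic metal that plants take up largely through carriers for essential metals, and it is bound in cells by thiol peptides and moved into vacuoles. Transcripts that stay level under such a stress are of practical use, because measurements of other genes by quantitative PCR are normalised to them. Genes for the cytoskeleton, translation and protein turnover are often tried for that purpose in plants. The table gives contig names alone, without gene names or sequences, so no contig below is assigned a gene or a function. Contig names carry the assembly's own grouping: names that begin with CL and a number mark contigs placed in a cluster of similar sequences, possibly variants of 1 gene or members of a gene family, and names that begin with Unigene mark contigs that stand alone.

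Stability was rare at every level of abundance. Of 70885 contigs with a mean of at least 1 FPKM, taken as expressed, 2933 (4.14%) lay within 1.5-fold over the 4 libraries. The share was 2.45% at a mean of 1 to 5 FPKM and 6.16% at 5 to 20 FPKM. It was 8.89% at 20 to 100 FPKM, 8.4% at 100 to 200, 7.84% at 200 to 500 and 8.93% at 500 to 1000 FPKM. From 20 FPKM upward the share thus moved little with abundance, and the 100 FPKM floor did not mark a step. On the median-of-ratios scale described further on, the share was 14.4% at 20 to 100 FPKM and from 16.9% to 19.6% in the levels from 100 to 1000 FPKM. Neither of the 2 contigs with a mean of 1000 FPKM or more was stable as deposited, and 1 was within 1.5-fold on the median-of-ratios scale. Fragment counts are not in the table, so the counting error behind the low share at 1 to 5 FPKM is unknown and its part was not tested.

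**Figure D1:**
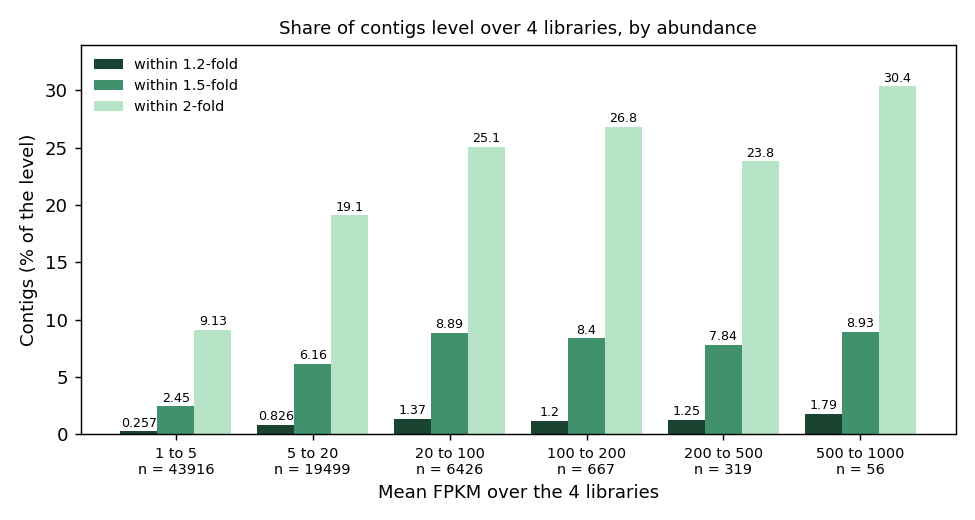
Share of contigs (vertical axis, percent of the contigs at that level) whose highest value over the 4 libraries was within 1.2, 1.5 or 2 times the lowest, by mean FPKM (horizontal axis, with the number of contigs). The share within 1.5-fold is 2.45% at 1 to 5 FPKM and between 7.84% and 8.93% in the 4 levels from 20 FPKM upward.

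Abundant contigs failed the limit mainly between the times and seldom between the lines. Of the 1044 abundant contigs, 91.9% were within 1.5-fold between LmHC and LmLC at 0 h and 88.6% at 24 h. Between 0 h and 24 h, only 20.5% were within 1.5-fold in LmHC and 18% in LmLC. The lines were within 1.5-fold of each other at both times for 867 abundant contigs, whereas the times were within 1.5-fold in both lines for 123. In both lines, 499 abundant contigs were more than 1.5-fold lower at 24 h and 264 were more than 1.5-fold higher, and 2 went past 1.5-fold in opposite directions.

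Levelness over time in one line went with levelness in the other line, which shares no library with it. This comparison was added after the values were seen. Among contigs with a mean of 100 FPKM or more over the 2 LmHC libraries, 212 were within 1.5-fold between the times in LmHC, and 121 of these (57.1%) were also within 1.5-fold in LmLC. Of the 826 that moved more than 1.5-fold in LmHC, 65 (7.87%) were within 1.5-fold in LmLC. Choosing in LmLC and reading in LmHC gave 121 of 183 (66.1%) against 90 of 846 (10.6%). Contigs level in LmHC still had a median log2 ratio of -0.39 between 24 h and 0 h in LmLC, and 31 of the 212 were more than 2-fold apart there. On the median-of-ratios scale the shares were 65.0% of 323 against 5.2% of 731, and 86.1% of 252 against 14.2% of 772.

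One library was also kept out of the choice in turn. With the rule applied to 3 libraries, the 4th lay within 1.5-fold of the mean of the 3 for 102 of 112 contigs when it was LmHC at 0 h, for 114 of 142 when it was LmHC at 24 h, for 110 of 121 when it was LmLC at 0 h and for 118 of 157 when it was LmLC at 24 h. These shares, from 75.2% to 91.1%, compare with 21.4% to 29.6% of the abundant contigs that the 3 libraries did not choose. The other line at the same time was always among the 3, and most abundant contigs were within 1.5-fold between the lines, so these shares give no separate evidence of levelness over time.

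**Figure D2:**
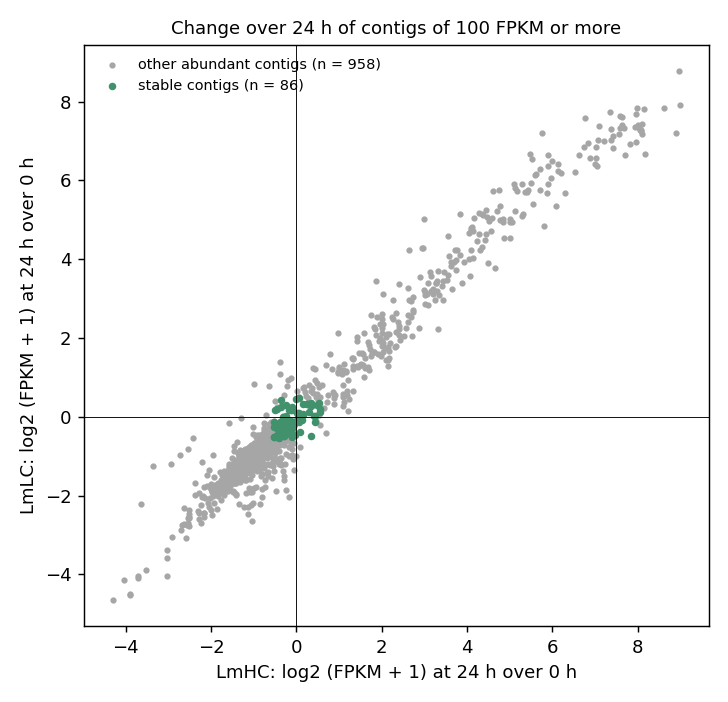
Change of all 1044 abundant contigs over 24 h, as log2 of (FPKM + 1) at 24 h over (FPKM + 1) at 0 h, in LmHC (horizontal axis) and LmLC (vertical axis). Green points are the 86 stable contigs and grey points the other 958, most of which lie below 0 on both axes.

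The stable contigs had the abundance of abundant contigs in general. Their mean ran from 101 to 959 FPKM with a median of 159 FPKM, against a median of 162 FPKM for the 958 others. Summed, they held between 2.25% and 2.48% of a library's total FPKM, and all 1044 abundant contigs held between 26.3% and 30.3%. The lowest single value among them was 81.2 FPKM. Of the 100 contigs with the highest mean, 6 were stable.

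The stable contig with the highest level was CL224.Contig3_All, at 1015 and 811 FPKM in LmHC and 1040.5 and 970.5 FPKM in LmLC at 0 h and 24 h. It ranked from 9 to 22 among all contigs of a library, and its lowest value was the LmHC library at 24 h. CL888.Contig1_All had 928 and 791 FPKM in LmHC and 1049.6 and 795 FPKM in LmLC at 0 h and 24 h, with both 24 h values below both 0 h values. CL224.Contig1_All had 771 and 684 FPKM in LmHC and 666 and 779.9 FPKM in LmLC at 0 h and 24 h, so it was slightly lower at 24 h in LmHC and slightly higher in LmLC. CL3234.Contig6_All had 785 and 591 FPKM in LmHC and 877 and 643 FPKM in LmLC at 0 h and 24 h, again lower at 24 h in both lines and, at a highest over lowest ratio of 1.48, close to the limit.

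The most abundant stable contig outside clusters was Unigene17592_All, at 469.8 and 633 FPKM in LmHC and 547 and 550.0 FPKM in LmLC at 0 h and 24 h. Its LmHC values were the lowest and the highest of the 4, and its LmLC values were nearly equal. Unigene2637_All had 486 and 420.1 FPKM in LmHC and 470.3 and 425 FPKM in LmLC at 0 h and 24 h, a ratio of 1.16, and was the one contig among both the 10 most abundant and the 10 most level. The other 4 of the 10 most abundant had means between 370.4 and 383 FPKM. They were CL224.Contig2_All, CL10083.Contig2_All, CL224.Contig4_All and CL6416.Contig10_All, with ratios of 1.26, 1.33, 1.38 and 1.4.

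**Figure D3:**
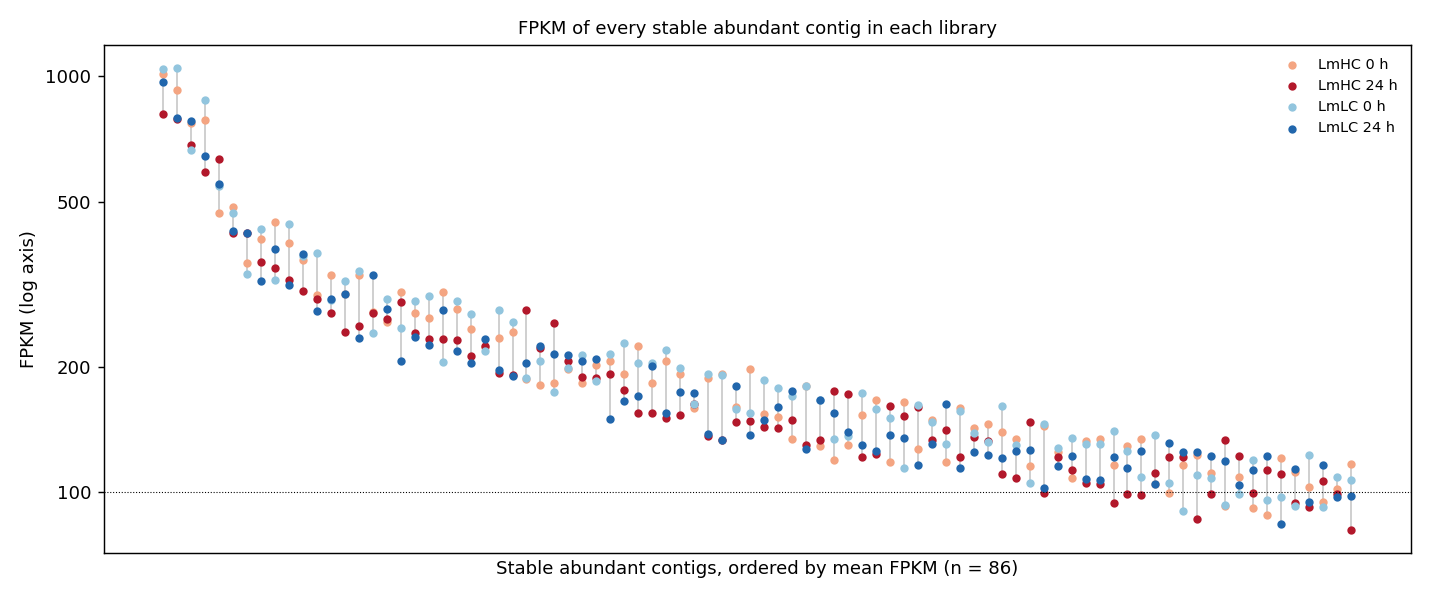
FPKM (vertical log axis) of each of the 86 stable contigs in the 4 libraries, ordered by mean (horizontal axis); points are libraries and the grey bar spans their lowest to highest value. The dotted line marks 100 FPKM, and the values run from 81.2 to 1049.6 FPKM.

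As deposited, the most level of the stable contigs was CL15094.Contig6_All, with a highest over lowest ratio of 1.06. It had 224 and 224 FPKM in LmHC and 219 and 233 FPKM in LmLC at 0 h and 24 h. Unigene2825_All followed with 198 and 207 FPKM in LmHC and 199 and 214 FPKM in LmLC at 0 h and 24 h and a ratio of 1.08. CL7162.Contig2_All had 159.6 and 163 FPKM in LmHC and 163 and 173 FPKM in LmLC at 0 h and 24 h and a ratio of 1.08. These 3 were the ones within 1.1-fold, and in each the highest value was LmLC at 24 h.

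CL2837.Contig5_All, with 125, 121, 128 and 116 FPKM in the order LmHC at 0 h and 24 h and LmLC at 0 h and 24 h, and CL445.Contig7_All, with 102, 99.2, 109 and 97.3 FPKM in the same order, had their lowest value in LmLC at 24 h. CL3234.Contig7_All had 203, 189, 185 and 209 FPKM in that order, and its values at the 2 times overlapped. CL6917.Contig1_All had 143, 136, 139 and 125 FPKM and CL3661.Contig2_All had 149, 134, 148 and 131 FPKM, both lower at 24 h in each line. CL8773.Contig1_All had 257, 261, 292 and 276 FPKM and was higher in LmLC than in LmHC at both times. In all, 13 contigs were within 1.2-fold, 32 within 1.3-fold, and 26 had a ratio over 1.4.

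At the limit on the ratio, the values run on without a gap. Just inside were Unigene12270_All, CL12220.Contig4_All, CL7794.Contig6_All, CL3234.Contig6_All and Unigene31993_All, with ratios from 1.47 to 1.49. Just outside were Unigene476_All, Unigene15865_All, Unigene488_All, CL10025.Contig3_All and CL9263.Contig1_All, with ratios from 1.5 to 1.52. Unigene31993_All had 117 and 94.5 FPKM in LmHC and 141 and 122 FPKM in LmLC at 0 h and 24 h, and Unigene476_All, just outside, had 169 and 133 FPKM in LmHC and 199 and 134 FPKM in LmLC at 0 h and 24 h. Both had their highest value in LmLC at 0 h and their lowest in LmHC at 24 h.

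At the floor on the level, the lowest stable contigs were CL6859.Contig13_All, CL445.Contig7_All, CL9879.Contig1_All, CL14595.Contig2_All and CL4727.Contig9_All, with means from 101 to 103 FPKM. Level contigs just under the floor were CL5522.Contig2_All, CL2090.Contig2_All, CL382.Contig6_All, CL5522.Contig6_All and CL9219.Contig6_All, with means from 96.0 to 99.7 FPKM. CL2090.Contig2_All, for example, had 100 and 92.9 FPKM in LmHC and 105 and 98.5 FPKM in LmLC at 0 h and 24 h, which is more even than most of the 86.

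As deposited, the small differences left inside the limit were more often lower than higher at 24 h, an order that another scaling turned. At 24 h, 46 of the 86 were lower in both lines (53.5%, where 65.7% of abundant contigs were), 19 were higher in both (22.1%, where 30.7% were) and 21 went in opposite directions (24.4%, where 3.54% did). After median-of-ratios scaling 5 were lower in both lines (5.81%, where 56.3% of abundant contigs were) and 56 higher in both (65.1%, where 35.4% were). The other 25 were opposite (29.1%, where 8.24% were). Both 0 h values lay above both 24 h values in 39 stable contigs (45.3%), against 64.3% of the abundant contigs, and both 24 h values lay above in 16 (18.6%), against 30%. In the remaining 31 the times overlapped. The rule used these values, and nothing is read from the difference between the shares. The median log2 ratio between 24 h and 0 h was -0.15 in LmHC and -0.13 in LmLC for the stable contigs, and -0.66 and -0.72 for all abundant contigs. Over all expressed contigs these medians were -0.20 and -0.14.

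Between the lines, LmLC was higher at both times in 29 stable contigs (33.7%, where 35.2% of abundant contigs were), LmHC was higher at both times in 14 (16.3%, where 23.5% were), and in 43 the order changed between the times. The median log2 ratio of LmHC over LmLC in the stable contigs was -0.03 at 0 h and -0.04 at 24 h, and on the median-of-ratios scale it was -0.08 at 0 h and 0.04 at 24 h. Both LmLC values lay above both LmHC values in 12 (14.0%), where the share of abundant contigs was 1.92%, and both LmHC values lay above in 5 (5.81%), where it was 1.53%. These counts too rest on the values of the rule. The highest of the 4 values was LmLC at 0 h in 36 contigs, LmHC at 0 h in 22, LmLC at 24 h in 18 and LmHC at 24 h in 10. The lowest was LmHC at 24 h in 30, LmLC at 24 h in 24, LmHC at 0 h in 18 and LmLC at 0 h in 14.

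Which contigs count as stable depended on how the libraries were scaled. FPKM sets each library to its mapped fragments, and the abundant contigs as a group were lower at 24 h on this scale. Scaling by the median of ratios, which sets the typical contig equal across libraries, put the median log2 ratio between 24 h and 0 h, over expressed contigs, at 0.02 in LmHC and 0.08 in LmLC. Over abundant contigs this median was still below 0, at -0.23 in LmHC and -0.41 in LmLC. Median-of-ratios scaling gave 174 stable contigs of 1033 abundant ones (16.8%). The 2 lists shared 60 contigs, which is 69.8% of the 86 and 34.5% of the 174. Of the 114 contigs gained, 113 were lower at 24 h in both lines as deposited, and of the 26 lost, 16 were higher in both.

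On the median-of-ratios scale the stable contigs turned from slightly lower to slightly higher at 24 h, with a median log2 ratio of 0.27 in LmHC and 0.18 in LmLC. All 10 of the most level contigs stayed within 1.5-fold, but each had a higher ratio than as deposited. CL15094.Contig6_All, Unigene2825_All and CL7162.Contig2_All went to 1.35, 1.41 and 1.39, and Unigene2637_All to 1.17. The most level of the 86 on that scale was CL10447.Contig2_All, at 1.04 (1.35 as deposited), so the order of levelness depended on the scaling. Of the 10 most abundant, Unigene17592_All went to 1.81 and CL224.Contig2_All to 1.64, and the other 8 stayed within the limit. Ranks within a library do not depend on the scaling. Of the 372 contigs among the top 1000 in all 4 libraries, 63 were of the 86 and 309 of the 958 other abundant contigs. Of the 19 among the top 100 in all 4, 15 were other abundant contigs and 4 were stable. Those 4 were CL224.Contig3_All, CL888.Contig1_All, CL224.Contig1_All and CL3234.Contig6_All. The ranks come from the values the rule used, so nothing is read from these counts.

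Of the 86 stable contigs, 64 belonged to 50 assembly clusters and 22 stood alone. Among abundant contigs, 8.85% of those in clusters and 6.85% of those standing alone were stable. By cluster size, 8 of 138 abundant contigs (5.8%) were stable in clusters of 2, 22 of 244 (9.02%) in clusters of 3 to 5, and 34 of 341 (9.97%) in clusters of 6 or more. No test was run on these shares. RSEM, the software behind the values, shares out a fragment when more than 1 contig matches it, so values within a cluster depend on each other and are not separate measurements.

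The 64 clustered contigs had 329 partners, meaning contigs that share a cluster with a different stable contig. Of these, 50 had a mean below 1 FPKM and 279 were expressed. Among the 279, 56 (20.1%) were within 1.5-fold over the 4 libraries, against 4.95% of all expressed contigs in clusters, and 25 of the 56 were stable abundant contigs themselves. Most partners of a stable contig therefore were not stable.

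Partners below 100 FPKM were not open to selection by the rule, so their values bear on whether a cluster is level as a whole. Of 239 such partners, 31 (13%) were within 1.5-fold and 75 (31.4%) within 2-fold. In clusters that held an abundant contig but no stable one, the numbers were 57 of 1889 (3.02%) and 200 (10.6%). The share differed with the partner's own level: at 20 to 100 FPKM 20 of 86 partners of stable contigs were within 1.5-fold (23.3%), at 5 to 20 FPKM 11 of 73 (15.1%), and at 1 to 5 FPKM none of 80. For clusters without a stable contig these shares were 4.55%, 3.38% and 0.997%, and for all clustered contigs 8.81%, 6.68% and 3.05%. With the same contigs read on the median-of-ratios scale the gap narrowed: at 20 to 100 FPKM 19.8% of partners of stable contigs were within 1.5-fold, 8.32% in clusters without one and 14.5% of all clustered contigs.

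Low partners were often higher at 24 h, beside stable contigs and beside others. At 1 to 5 FPKM, 38 of 80 partners of stable contigs (47.5%) were higher by 2-fold or more in both lines at 24 h, on the log2 (FPKM + 1) scale, and so were 281 of 602 (46.7%) in clusters without a stable contig, against 24.9% of all clustered contigs at that level. At 20 to 100 FPKM the values separated, with 2 of 86 (2.33%) beside stable contigs and 242 of 637 (38.0%) in clusters without one. The share of all clustered contigs at that level was 25.9%. On the median-of-ratios scale the numbers were 7 of 86 (8.14%) and 260 of 637 (40.8%), against 29.6% of all clustered contigs. Over all levels of 1 FPKM or more, 57 of 279 partners were higher by 2-fold or more in both lines (20.4%, where 23.8% of clustered contigs were) and 10 were lower by 2-fold or more (3.58%, where 17.5% were).

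**Figure D4:**
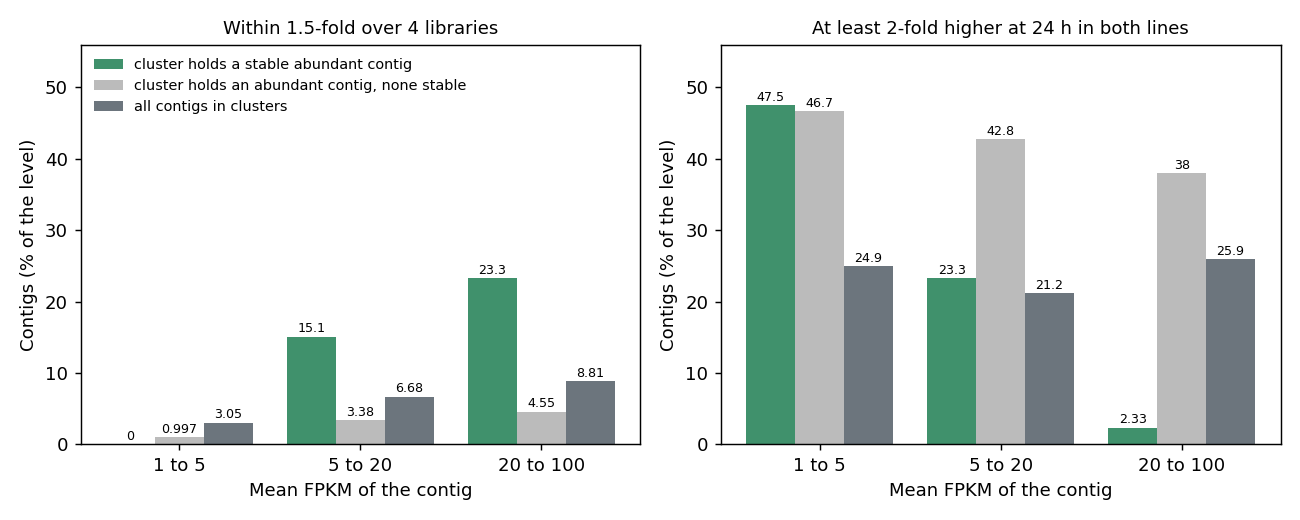
Contigs below 100 FPKM in clusters that hold a stable abundant contig (green), in clusters that hold an abundant contig but no stable one (light grey) and in all clusters (dark grey), by mean FPKM (horizontal axis). The left panel gives the percent within 1.5-fold over the 4 libraries, 23.3% against 4.55% at 20 to 100 FPKM, and the right panel the percent that were higher by 2-fold or more in both lines at 24 h, 47.5% against 46.7% at 1 to 5 FPKM.

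Summed over all its contigs, a cluster with a stable contig was mostly level, which in part restates the rule because the stable contig is in the sum. Of the 50 clusters, 41 had a summed FPKM within 1.5-fold, against 21 of 462 clusters with an abundant contig and no stable one. The rule set these 462 apart too, by the lack of a stable contig. Of all clusters with a summed mean of 100 FPKM or more, 134 of 1099 (12.2%) were level. The stable contigs held over 50% of the cluster's FPKM in all 4 libraries in 35 clusters and over 90% in 11. With the abundant contigs taken out, in a comparison added after the values were seen, the remaining contigs summed to a mean of 20 FPKM or more in 37 of the 50 clusters. These sums were within 1.5-fold in 15 (40.5%), against 25 of 352 clusters without a stable contig (7.1%). The median ratio of highest to lowest sum was 1.6 in the first and 3.25 in the second.

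Of the 9 clusters whose sum was not level as deposited, 6 were lower at 24 h in both lines and 1 was higher in both. CL6416 is the most abundant of those that were lower, with sums of 2377, 1427, 2337 and 1657 FPKM in the order LmHC at 0 h and 24 h and LmLC at 0 h and 24 h. Its stable contigs, CL6416.Contig10_All at 398, 325, 443 and 316 FPKM and CL6416.Contig19_All at 129, 134, 167 and 167 FPKM in that order, sat among 17 other expressed contigs, none of them within 1.5-fold. The most abundant contig of the cluster, CL6416.Contig16_All, missed the limit narrowly at a ratio of 1.52, and CL6416.Contig9_All missed it at 1.58. CL6416.Contig1_All, the partner with the largest fall there, went from 138 to 18.6 FPKM in LmHC and from 127 to 36.8 FPKM in LmLC. Median-of-ratios scaling divides LmHC values by 1.17 at 0 h and 0.87 at 24 h, and LmLC values by 1.13 and 0.91. Falls at 24 h, as in the CL6416 sums, are therefore smaller on that scale. Divided by these factors, the CL6416 sums were within 1.5-fold, so that cluster was not level only as deposited. For the rest of the 9 clusters the sums on that scale are not given.

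In 11 clusters 2 or more contigs were stable, 25 contigs in all, and 2 clusters held 3 or more. CL224 stood out in that all 4 of its contigs were stable and abundant, and its sums were 2590.1, 2262, 2365 and 2555 FPKM, a ratio of 1.14. As deposited, its contigs differed in direction: at 24 h CL224.Contig2_All was higher in both lines, at 357 and 421 FPKM in LmHC and 335 and 420.2 FPKM in LmLC at 0 h and 24 h, CL224.Contig3_All was lower in both, and CL224.Contig4_All, at 447 and 346 FPKM in LmHC and 323 and 384 FPKM in LmLC at 0 h and 24 h, was lower in LmHC and higher in LmLC. As deposited, the sum was more even than any of the 4. Divided by the median-of-ratios factors, the sum stayed within 1.5-fold. It was then less even than CL224.Contig3_All, which had a ratio of 1.22 on that scale. On the median-of-ratios scale all 4 were higher at 24 h in both lines; CL224.Contig2_All left the limit, as given above, and the other 3 stayed within it.

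CL15094 held 3 stable contigs among 23 expressed ones and its sums were 1709.6, 1585, 1658 and 1548 FPKM, a ratio of 1.1. CL15094.Contig8_All had 334 and 269 FPKM in LmHC and 290.5 and 291 FPKM in LmLC at 0 h and 24 h, and CL15094.Contig13_All had 263 and 234 FPKM in LmHC and 297 and 226 FPKM in LmLC at 0 h and 24 h. Of its other 20 expressed contigs, 1 was within 1.5-fold. Partners moved in both directions: CL15094.Contig5_All went from 5.04 to 77.4 FPKM in LmHC and from 9.38 to 75.3 FPKM in LmLC, and CL15094.Contig12_All went from 98.2 to 34.7 and from 27.5 to 6.41 FPKM.

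CL3234 and CL888 each held a contig near the top and a second stable contig far below it. Beside CL3234.Contig6_All and CL3234.Contig7_All, given above, CL3234.Contig8_All missed the limit at 352, 271, 404 and 249 FPKM and CL3234.Contig4_All, below the floor, was within it at 83.9, 69.8, 94.6 and 82.2 FPKM. In CL888, CL888.Contig4_All was stable at 198, 149, 155 and 137 FPKM, and of the 2 next contigs CL888.Contig3_All was level at 84.2, 77.4, 82.4 and 74.4 FPKM while CL888.Contig5_All missed the limit at 70.2, 68.4, 94.2 and 104 FPKM.

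CL14595 held both the partner with the largest increase and the one with the largest decrease, among partners of 5 FPKM or more and counting the line that moved less. Its stable contig, CL14595.Contig2_All, had 103 and 92.5 FPKM in LmHC and 123 and 95.1 FPKM in LmLC at 0 h and 24 h. CL14595.Contig7_All went from 3.9 to 78 FPKM in LmHC and from 2.25 to 76.2 FPKM in LmLC, while CL14595.Contig4_All went from 77.8 to 5.76 FPKM and from 105 to 1.4 FPKM. The sum of these 2 partners, taken after their values were seen, was 81.7, 83.7, 107 and 77.6 FPKM in the order LmHC at 0 h and 24 h and LmLC at 0 h and 24 h, a ratio of 1.38, so the pair exchanged places while their total stayed level. The 2 partners named in CL15094 did not add up in this way, with sums of 103, 112, 36.9 and 81.7 FPKM.

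**Figure D5:**
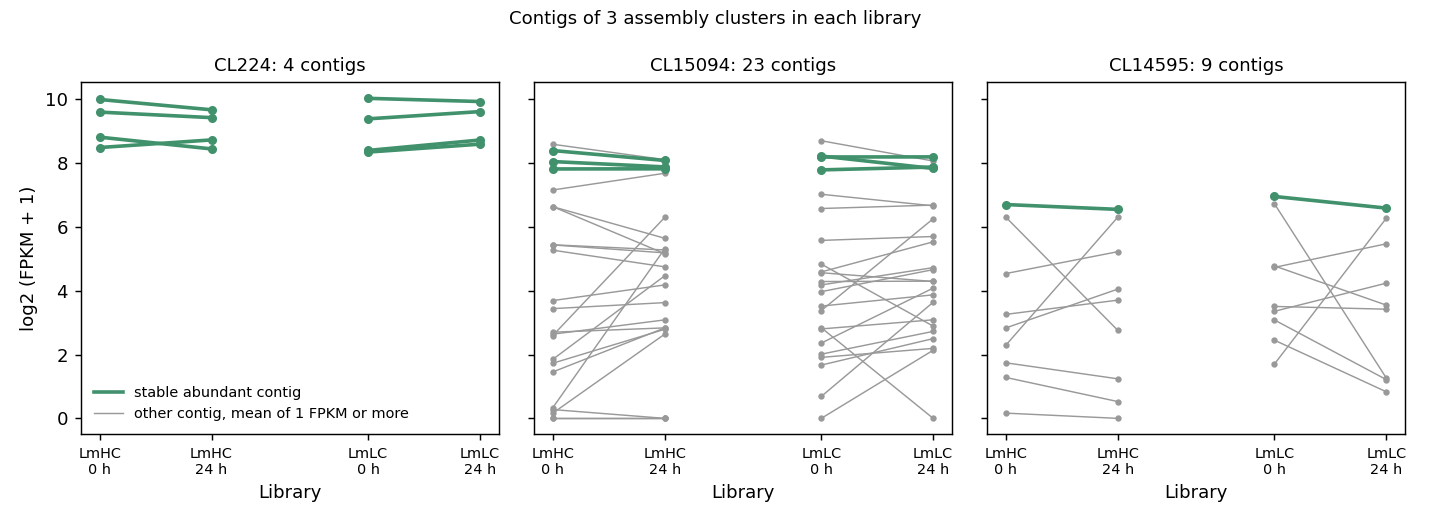
log2 (FPKM + 1) (vertical axis) of every contig with a mean of 1 FPKM or more in the clusters CL224, CL15094 and CL14595, in the 4 libraries (horizontal axis). Green lines are stable abundant contigs and grey lines the other contigs; all 4 contigs of CL224 are green, and grey lines cross steeply in CL14595.

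The other partners with the largest increases were low ones. CL445.Contig9_All, partner of CL445.Contig7_All, had 0.38 and 18.1 FPKM in LmHC and 0.39 and 17.7 FPKM in LmLC at 0 h and 24 h. CL7794.Contig4_All, partner of CL7794.Contig6_All, had 0.43 and 17.5 FPKM in LmHC and 0.27 and 13.6 FPKM in LmLC at 0 h and 24 h, and CL664.Contig6_All, partner of CL664.Contig4_All, had 0.65 and 13 FPKM in LmHC and 0.49 and 14.3 FPKM in LmLC at 0 h and 24 h. In all 3 the 24 h values lay far above the 0 h values in both lines. The partners with the largest decreases, after those of CL14595, CL6416 and CL15094, were CL549.Contig3_All, at 45.4 and 20.3 FPKM in LmHC and 49.8 and 19.9 FPKM in LmLC at 0 h and 24 h, and CL2534.Contig3_All, at 84.8 and 39.3 FPKM in LmHC and 135 and 31.3 FPKM in LmLC at 0 h and 24 h.

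Clusters in which every sizeable contig was level were few. Of 34 clusters with a further contig of 20 FPKM or more, all such contigs were within 1.5-fold in 6. In CL12822 the stable CL12822.Contig1_All, at 105 and 111 FPKM in LmHC and 137 and 105 FPKM in LmLC at 0 h and 24 h, was joined by CL12822.Contig2_All, at 68.5 and 82.2 FPKM in LmHC and 71 and 69.3 FPKM in LmLC at 0 h and 24 h, and CL12822.Contig5_All, at 23.1 and 29.9 FPKM in LmHC and 27.3 and 26.9 FPKM in LmLC at 0 h and 24 h. The other clusters named by the rule, CL15189, CL4252, CL1336 and CL10323, each had 1 such partner. CL15189.Contig1_All followed its abundant partner CL15189.Contig3_All closely, at 66.9, 58.4, 73.8 and 55.7 FPKM beside 248, 213, 269 and 205 FPKM in the same library order, and the abundant contig held between 78.4% and 78.6% of the cluster's FPKM in every library.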

How the data were processed

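Polyadenylated RNA from 4 groups of seedlings was sequenced, with 1 library per group. The FPKM values were computed by the authors and deposited as 1 table of 111761 contigs, rounded to 2 decimals. The tools named are Bowtie2 2.2.5 (an aligner) and RSEM 1.2.8 (which estimates abundance), per the submitters' processing notes. The sources used here name no assembler, contig lengths, fragment counts or filters, so depth is unknown and no counting interval is given. Columns were matched to samples by title.

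From the deposited FPKM the mean and the ratio of highest to lowest value were computed for every contig, with no pseudocount. Log2 ratios used FPKM + 1. Clusters were read from contig names. No test was run. The named contigs were taken by rule: the 10 highest, the 10 most level, 5 on each side of both limits, the stable contigs of 5 clusters (those with most stable contigs and, among the clusters tied at 2, those with the highest summed mean), the partners with the largest changes, and clusters whose partners of 20 FPKM or more were all level. Contigs and rules were chosen with earlier results of these data known. Python 3.11.15, numpy 2.4.6, pandas 2.3.3 and matplotlib 3.10.9 were used. The code of the rule was checked on simulated contigs made either level or changed, with counting noise alone at an assumed length and depth. That check concerns the code and says nothing about the error of the measured values.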

Additional observations from a re-analysis of the deposited data

Results flagged for a closer look

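Of the 86 stable contigs, 21 changed in opposite directions in the lines at 24 h, 8 of them higher in LmHC and lower in LmLC and 13 the other way around. The change of a line is 1 difference between 2 libraries, so its direction has no replicate, and the difference between the lines was not tested. Opposite directions were found in 3.54% of the abundant contigs; the stable contigs were chosen on these same values for small changes, so nothing is read from the gap. With median-of-ratios scaling, tried after the values were seen, 4 of the 21 stayed opposite and 17 were higher at 24 h in both lines. All these changes as deposited are within the 1.5-fold limit. The widest were in Unigene6698_All, at 127 and 161 FPKM in LmHC and 162 and 116 FPKM in LmLC at 0 h and 24 h (log2 ratios of 0.33 and -0.48), and in CL7794.Contig6_All, at 304 and 234 FPKM in LmHC and 205 and 274 FPKM in LmLC at 0 h and 24 h (log2 ratios of -0.37 and 0.42). With that scaling Unigene6698_All stayed opposite, at 0.76 and -0.17, and CL7794.Contig6_All was higher in both lines, at 0.06 and 0.73; their highest over lowest ratios were then 1.7 and 1.66, past the limit. Unigene6698_All was named after its values were seen.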

How the results depend on the processing

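No paired analysis was possible because the groups share a single replicate number and the reported counts come from no test; an additive fit of line and time was not run. As reported, there were 86 stable contigs (8.24% of abundant ones), 20.1% of expressed partners were level, and 41 clusters with a stable contig had a level sum. A limit of 1.2 on the ratio gave 13 contigs (1.25%), 1.27% of partners and 4 clusters, and a limit of 2 gave 273 contigs (26.1%), 31.6% of partners and 148 clusters. Median-of-ratios scaling gave 174 contigs (16.8%) and 92 clusters. The 41 clusters as reported were of 50 that held a stable contig. How many clusters hold one changes with the limit and the scaling and is not given for these settings. The cluster counts are therefore not shares and cannot be compared as such. A floor of 50 FPKM gave 225 contigs and one of 200 FPKM 30 contigs. Asking for 100 FPKM in every library gave 16.0% of abundant contigs. Summing clusters gave 156 units (11%). Partners of 5 FPKM or more were level in 28.1% and those of 20 FPKM or more in 35.7%. Both shares include stable contigs that are partners of each other, which are level by the rule. At 20 to 100 FPKM, where the rule chose no contig, 23.3% of partners were level. Leaving out 1 library gave 112 to 157 contigs (10.5% to 15.2%) and 20.8% to 27.3% of partners; without LmLC at 24 h there were 157 contigs and without LmHC at 24 h 142, and fewer values to satisfy raise the count by construction. In all, 25 alternative values moved beyond 1.5 times the count or beyond the binomial interval of the share, and 19 did not. The interval treats contigs as independent, which those of a cluster are not. It served only as a yardstick and measures no spread between seedlings. For single named contigs, 27 alternative ratios crossed the limit of 1.5 and 407 did not. Limits, floors and left-out libraries change the counts by their construction; for the scaling, the cause was not tested.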
